A study of Mus musculus with 7 samples.

Results

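The replication-dependent histone genes are described here across 5 peak lists of mouse common monocyte progenitors (cMoPs), the bone marrow cells that give rise to monocytes. The members were every protein-coding gene of the RefSeq annotation of GRCm38.p6 (mm10) whose symbol carried the systematic name of such a gene, from H1f1 to H1f6 for the linker histones and H2ac, H2bc, H3c or H4c with a number for the core histones. The names matched 64 genes, of which 1 pseudogene, H2ac14, was left out, so 63 of 21843 protein-coding genes were members. There were 6 H1, 17 H2A, 16 H2B, 12 H3 and 12 H4 genes, 53 of them on chromosome 13 and 10 on chromosome 3. A gene counted as called in a list when an interval of that list came within 1 kb of either of its ends.

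Histones H2A, H2B, H3 and H4 form the core around which DNA is wrapped, and H1 binds the DNA between cores. A dividing cell supplies them in S phase from clustered genes that mostly lack introns and whose messages end in a stem-loop bound by SLBP in place of a poly(A) tail, with NPAT as a coactivator shared by the clusters. Methylation of lysine 4 of histone H3, H3K4me2 and H3K4me3, marks promoters and, for H3K4me2, enhancers as well. CUTAC (cleavage under targeted accessible chromatin) tethers a transposase to an antibody against such a mark under conditions that favour insertion into nearby open DNA, so its intervals report accessible DNA beside the mark.

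The study compared sorted bone marrow cMoPs of 2 genotypes, WT and DE, of the -165-kb enhancer of Zeb2, which encodes a zinc finger repressor; the labels do not expand DE. H3K4me2 was profiled in 2 WT libraries (WT 1 and WT 2) and 2 DE libraries (DE 1 and DE 2) of batch 2, and H3K4me3 in 1 WT library of batch 1. Each used 100000 cells. The labels give no strain, age or number of animals, and do not say whether animals were pooled or whether libraries came from separate animals. An H3K4me3 sample of another progenitor and an IgG sample of the cMoPs were not analysed here, so no antibody background stands beside the values.

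The H3K4me2 lists held 32354 and 28152 intervals in WT and 21968 and 17079 in DE, and the H3K4me3 list held 6425. Read depth is not recorded in the lists. All 7 monocyte progenitor markers (Csf1r, Ly6c2, Irf8, Klf4, Spi1, Cebpa and Kit) were called in each H3K4me2 list and 5 in the H3K4me3 list. Of 31 markers of other blood cells, 4 and 5 were called in WT, 6 and 5 in DE, and 1 in the H3K4me3 list. Of all protein-coding genes, 48.2 and 49.2% were called in WT, 44.9 and 40.3% in DE, and 20.8% in the H3K4me3 list. The dendritic cell marker Xcr1 was called in every list, and Bst2 and Tcf4 in every H3K4me2 list. Klf1 and S100a8 were called in both DE lists alone, Ltf in WT 1, Tcf7 and Epor in WT 2 and Cd79a in DE 1. The shortest interval was 74 and 91 bp in WT 1 and WT 2, 109 bp in DE 1 and in DE 2, and 96 bp for H3K4me3. The header line of the DE 1 list carries the name of the other DE library, but the DE lists, of 21968 and 17079 intervals, had 57 identical ones and are therefore different lists.

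The DNA upstream of 7 members is shown because the results below turn on it: it is covered in all 5 lists (H3c8), covered in part in some (H1f2, H2bc14 and H4c8), shared by a divergent pair (H2ac12) or covered in none (H2ac1 and H1f6). H1f2, H2bc14, H3c8 and H4c8 have the best mean place of their family, with H2A and H2B taken as 1 family; H2ac12, H2ac1 and H1f6 were added after their values were seen. All are RefSeq sequence of GRCm38.p6, read 5′ to 3′ toward the start of transcription, which follows the last base. Capitals mark, on either strand, TATAAA (the TATA box), CCAAT (bound by NF-Y), ATTTGCAT (the octamer, bound by OCT1) and CAGGTG (an E-box that E proteins and ZEB proteins bind). H1f2 lies at chr13:23738557-23738806 (plus strand), H2bc14 at chr13:21721794-21722043 (plus), H3c8 at chr13:23535168-23535417 (plus), H4c8 at chr13:23530794-23531043 (plus), H2ac12 at chr13:22035644-22035820 (minus, the 177 bp up to the start of H2bc12), H2ac1 at chr13:23934187-23934436 (plus) and H1f6 at chr13:23695561-23695810 (plus).
H1f2: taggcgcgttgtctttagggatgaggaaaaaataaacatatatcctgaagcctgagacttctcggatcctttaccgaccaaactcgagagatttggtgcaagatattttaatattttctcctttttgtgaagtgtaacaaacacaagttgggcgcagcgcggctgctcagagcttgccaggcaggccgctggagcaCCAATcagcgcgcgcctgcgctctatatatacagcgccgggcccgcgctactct
H2bc14: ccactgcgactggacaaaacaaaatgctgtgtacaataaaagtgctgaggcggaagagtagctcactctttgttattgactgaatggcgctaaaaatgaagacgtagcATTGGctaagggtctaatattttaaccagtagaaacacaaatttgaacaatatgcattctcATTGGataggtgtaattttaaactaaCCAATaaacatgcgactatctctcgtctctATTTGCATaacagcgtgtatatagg
H3c8: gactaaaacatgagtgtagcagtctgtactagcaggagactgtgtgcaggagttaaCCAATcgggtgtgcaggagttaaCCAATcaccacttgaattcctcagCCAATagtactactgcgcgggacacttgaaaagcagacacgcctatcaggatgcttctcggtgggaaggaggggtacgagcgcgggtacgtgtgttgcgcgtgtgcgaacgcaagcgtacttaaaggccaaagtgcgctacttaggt
H4c8: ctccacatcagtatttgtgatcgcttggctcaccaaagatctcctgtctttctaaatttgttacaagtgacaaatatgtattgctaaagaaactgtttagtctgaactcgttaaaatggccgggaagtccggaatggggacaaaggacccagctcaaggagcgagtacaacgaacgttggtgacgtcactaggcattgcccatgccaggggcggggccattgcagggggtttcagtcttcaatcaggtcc
H2ac12: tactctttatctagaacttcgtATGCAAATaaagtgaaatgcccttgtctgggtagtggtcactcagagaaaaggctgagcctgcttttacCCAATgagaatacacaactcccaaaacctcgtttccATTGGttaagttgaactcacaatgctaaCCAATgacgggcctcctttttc
H2ac1: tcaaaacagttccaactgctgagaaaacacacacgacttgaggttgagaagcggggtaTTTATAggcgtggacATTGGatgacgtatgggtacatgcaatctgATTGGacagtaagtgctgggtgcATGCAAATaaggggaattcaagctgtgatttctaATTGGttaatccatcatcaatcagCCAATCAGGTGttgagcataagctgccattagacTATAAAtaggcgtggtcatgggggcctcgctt
H1f6: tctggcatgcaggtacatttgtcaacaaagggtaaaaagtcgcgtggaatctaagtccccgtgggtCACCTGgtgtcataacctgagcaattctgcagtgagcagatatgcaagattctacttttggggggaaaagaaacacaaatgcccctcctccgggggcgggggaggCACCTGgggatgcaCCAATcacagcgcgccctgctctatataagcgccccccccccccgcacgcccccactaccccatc

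RefSeq start sites were at hand for 58 of the 63 members, with 59 starts since H2bc6 has 2; H3c7, H2bc4, H3c1, H2bc21 and H4c14 had none in the table. In the 250 bases upstream, CCAAT stood in 49 of 59 member promoters (83.1%), against 35.4% of 21263 promoters of all protein-coding genes. The families differed: each H1, H2A and H2B promoter held it, as did 8 of 10 H3 promoters, but 3 of 11 H4 promoters. TATAAA stood in 28 (47.5%, against 11.6%). The octamer stood in 13 (22.0%, against 1.58%), 6 of them of H2A and 7 of H2B genes and none of the other families. CAGGTG stood in 6 (10.2%, against 16.9%). Each motif was searched by itself, so matches that overlap count for each. The promoters of a divergent pair overlap, so a single site can count for both genes. The octamer is such a shared site for H2ac12 with H2bc12, H2ac8 with H2bc8 and H2ac1 with H2bc1. The E-box of H2ac1 and H2bc1 is shared as well. Promoters with a motif therefore outnumber separate stretches of DNA with it. A match is a run of letters and not a bound site.

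Nearly all replication-dependent histone genes had an H3K4me2 interval in WT cMoPs, and few had an H3K4me3 interval. In WT 1, 62 of 63 were called (98.4%, 95% Wilson interval 91.5 to 99.7), where 48.2% of all protein-coding genes were. In WT 2, 62 were called as well, where 49.2% of all genes were. In DE 1, 59 were called (93.7%, 84.8 to 97.5), against 44.9%, and in DE 2, 54 were called (85.7%, 75.0 to 92.3), against 40.3%. The H3K4me3 list called 5 (7.94%, 3.44 to 17.3), against 20.8% of all genes. The Wilson intervals cover counting error only, and neighbouring members share intervals, so members are not independent counts.

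**Figure D1:**
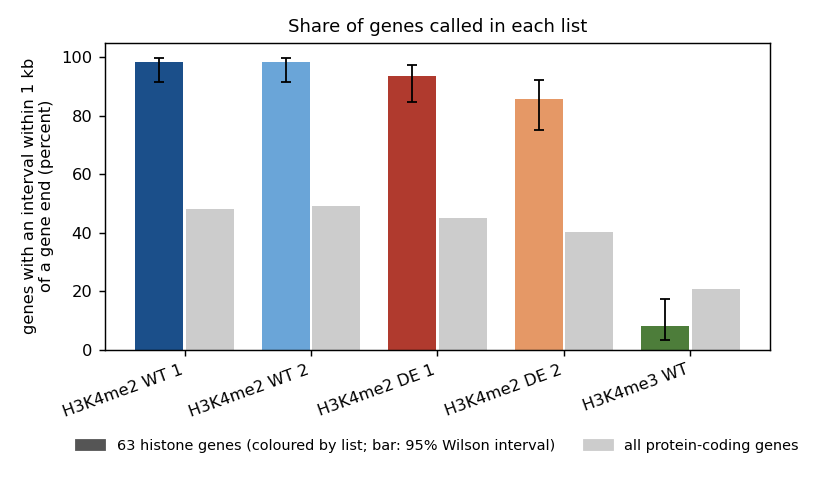
Share of the 63 replication-dependent histone genes (coloured bars, with 95% Wilson intervals) and of all 21843 protein-coding genes (grey bars) with an interval within 1 kb of either gene end, in percent, for each list. The coloured bars stand at 85.7 to 98.4% in the H3K4me2 lists, above the grey ones, and at 7.94% in the H3K4me3 list, below it.

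Across the 4 H3K4me2 lists, 54 members were called in each (85.7%, against 37.7% of all genes) and 1, H1f6, in none, a class that holds 47.5% of all genes. Another 5, H2bc23, H2bc3, H4c1, H3c1 and H1f1, were missing from DE 2 alone, the shortest of these lists. Called in both WT and neither DE list were 3 members, H2bc1, H2ac1 and H4c14 (4.76%), against 3.08% of all genes, so this count is near the background. Without DE 1 the count was 8, the 5 others being those missing from DE 2, against 7.41% of all genes. No member was called in both DE and neither WT list, where 0.224% of all genes were. With 2 libraries against 2, an exact permutation test over libraries cannot give a p below 0.333, and none is given.

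The genes lie in 5 blocks, taken as runs with no gap over 100 kb between members. Block 1, chr13:21715711-21833475, holds 17 members: H2bc13, H2ac13, H3c10, H2bc14, H4c11, H4c12, H2ac15, H2bc15, H1f5, H3c11, H2ac22, H2bc22, H2bc23, H2ac23, H4c17, H4c18 and H2ac24. Of these, 16 were called in all 4 lists, the exception being H2bc23. Block 2, chr13:22035122-22043658, holds H2ac12, H2bc12, H4c9, H2ac11 and H2bc11, called in all 4 lists. Block 3, chr13:23531044-23764412, is the largest, with 29 members, 24 of them called in all 4 lists. Block 4, chr13:23933725-23934913, holds the testis-specific pair H2bc1 and H2ac1, called in WT alone. Block 5, chr3:96219885-96270192, holds H2ac21, H2ac20, H2bc21, H3c15, H2ac19, H2ac18, H3c14, H4c14, H3c13 and H2bc18, of which 9 were called in all 4 lists and H4c14 in WT alone.

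The blocks held little besides these calls. With 1 kb added to each side, they span 421168 bases, in which WT 1 had 91 intervals, WT 2 88, DE 1 84, DE 2 63 and the H3K4me3 list 4. Between 90.5 and 94.0% of the H3K4me2 intervals, and all 4 of H3K4me3, came within 1 kb of a member. The distinct intervals at members numbered 85, 81, 79 and 57 in WT 1, WT 2, DE 1 and DE 2, and more than 1 member shared 50, 45, 46 and 34 of them.

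**Figure D2:**
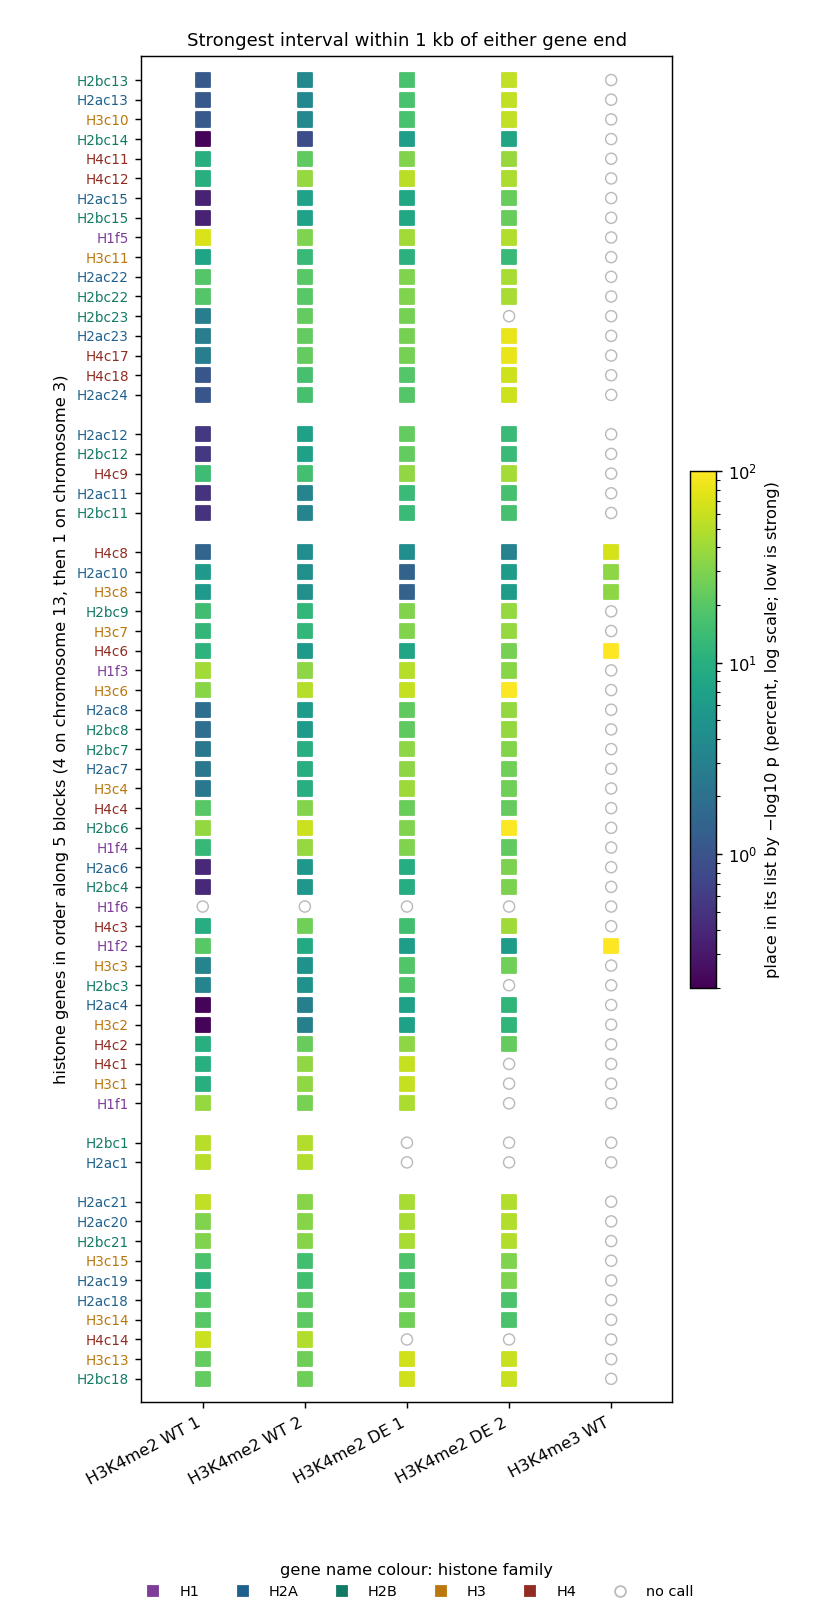
The 63 histone genes in order along their 5 blocks (rows, names coloured by family) and the 5 lists (columns). Squares give the place of the strongest interval within 1 kb in its list, in percent on a log scale (dark is strong), and open circles mark genes without a call. The H3K4me2 columns are nearly full, with H1f6 empty, the H2bc1 and H2ac1 pair and H4c14 filled in WT alone, and the H3K4me3 column holds 5 squares, all in the third block.

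Strength is given below as place, the rank of an interval by the −log10 p of the authors' peak caller as a percentage of its list, so that a low value is strong. Places and folds over local background are the authors' values within 1 library; lists of different length do not show a change between libraries by them. The strongest interval within 1 kb of a gene can be a different one in each list and can lie in a neighbouring gene. The strongest interval at a called member had a median place of 9.76% in WT 1, 15.3% in WT 2, 24.3% in DE 1 and 30.7% in DE 2. The same median over all called genes was 23.3, 24.5, 29.5 and 33.3%. Counted over distinct intervals, those at members had a median place of 22.7, 29.7, 36.8 and 46.0%, and those at any gene end 37.0, 37.5, 39.7 and 42.8%, so in DE 2 the member intervals were the weaker ones. Member intervals were 223, 325, 298 and 217 bp wide at the median, where all gene-end intervals were 180, 259, 296 and 275 bp wide. Among the 1000 strongest intervals of WT 1, WT 2, DE 1 and DE 2, 12, 3, 2 and 1 were at members, or 1.2, 0.3, 0.2 and 0.1%. Members held 0.263, 0.288, 0.360 and 0.334% of all intervals of these lists, so the share was above that of the list in WT 1, close to it in WT 2 and below it in both DE lists.

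**Figure D3:**
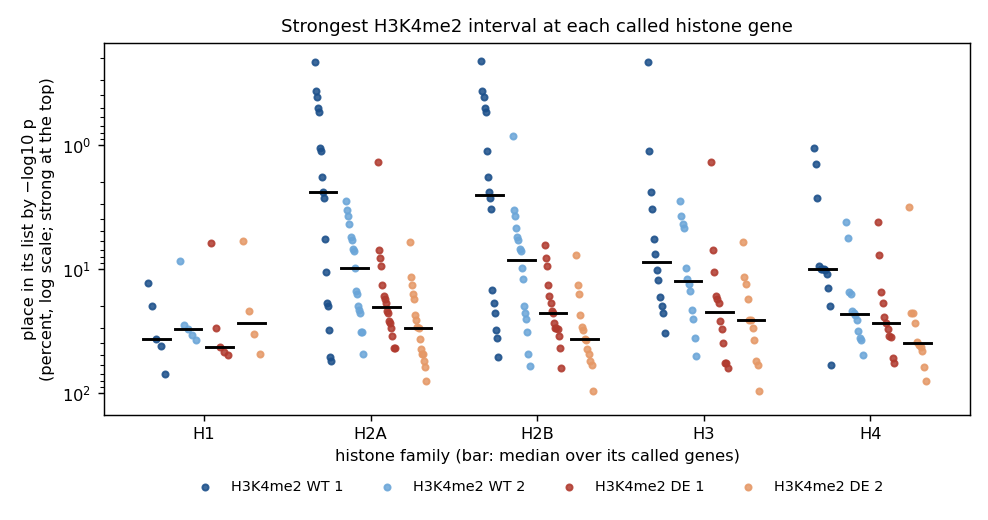
Place of the strongest H3K4me2 interval at each called histone gene (points, percent of its list on a log scale, strong at the top) by family and library, with the median as a bar. In WT 1 the medians of H2A (2.41%) and H2B (2.55%) stand above that of H1 (37.1%), and in DE 2 the family medians lie between 26.1 and 39.8%.

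The linker histone genes had the weakest family median in both WT lists and in DE 1. Their median place was 37.1, 30.4, 42.6 and 27.5% in WT 1, WT 2, DE 1 and DE 2, with 5, 5, 5 and 4 of 6 genes called. H1f2 encodes one of the abundant somatic H1 subtypes, and its strongest interval stood at 20.1, 8.65, 6.21 and 5.99%. In DE 1 that interval, chr13:23738721-23738897, lay over the start of H1f2. In WT 1, WT 2 and DE 2 it lay beyond the 3′ end of the gene, which ends at 23739531, and began at 23739622, 23739534 and 23739586. A second interval lay over the start in both WT lists, and the shown sequence was covered over 86, 81, 86 and 0 bases in WT 1, WT 2, DE 1 and DE 2. H1f4 encodes another, at 13.0, 37.5, 30.0 and 21.7%, and H1f3 stood at 41.9, 34.5, 49.9 and 33.3%. H1f5 was at 71.1, 30.4, 42.6 and 49.1%, and H1f1 at 37.1, 28.2 and 46.9% with no call in DE 2. No order among the 5 held in all 4 lists: H1f4 was first in WT 1 and H1f2 in the other 3.

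H1f6 is the testis-specific linker histone gene, made in spermatocytes, and it sits between called neighbours in block 3. Its nearest H3K4me2 interval was 1629, 1620, 1620 and 1641 bp away in WT 1, WT 2, DE 1 and DE 2, and its nearest H3K4me3 interval 43157 bp away. None of the 250 bases shown for it above was covered in any list, although they hold a CCAAT and 2 copies of the E-box.

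The testis-specific core pair, which forms block 4, was called through 1 interval in each WT list. H2bc1 had an interval inside the gene in both WT lists, with its strongest summit 332 and 279 bp from the start, at 51.0 and 48.3% of the lists and a fold of 5.28 and 7.88. The same interval counted for H2ac1, 530 and 516 bp from that gene. In the DE lists the nearest interval to H2bc1 was 133977 and 100371 bp away. The sequence shown for H2ac1, most of the 280-bp gap of the pair, was covered in 0 lists, and it holds TATAAA on each strand, 4 CCAAT boxes, the octamer and the E-box. H4c14 on chromosome 3 also had weak intervals in WT alone, at 60.1 and 49.3% with folds of 5.31 and 7.42. When each H3K4me2 list was limited to its 17079 strongest intervals, the length of the shortest, H4c14 lost its WT pattern and the testis pair kept it. At a −log10 q of 5 or more, none of these 3 kept it.

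The H2A genes, whose protein forms a dimer with H2B, carried most of the strongest member intervals in WT 1. Of the 12 member intervals among the 1000 strongest of WT 1, 10 had their summit inside an H2A gene of chromosome 13, as had 2 of 3 in WT 2. None of the 2 in DE 1 or the 1 in DE 2 had, these being the intervals of H3c8 and H4c8. The H2ac4 interval, which also counts for H3c2, ranked 69, with a place of 0.213% and a fold of 32.5. In WT 2, DE 1 and DE 2 its place was 2.86, 7.05 and 11.6% and its fold 23.6, 13.0 and 10.4. The H2ac15 interval stood at 0.365, 7.13 and 8.17% in WT 1, WT 2 and DE 1, while in DE 2 the strongest interval in its reach, at 23.6%, lay inside the facing gene H2bc15. That of H2ac6 stood at 0.411, 5.52, 9.44 and 29.7%. H2ac11 stood at 0.501, 3.34, 13.5 and 16%, and H2ac12 at 0.544, 6.97, 22.6 and 13.6%. In each of these 5 genes the WT 1 place was the strongest of the 4. H2ac10 had the best mean place of the family through the interval it shares with H3c8, at 5.71, 4.38, 1.37 and 6.09%, which was strongest in DE 1 instead.

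On chromosome 3, H2ac21 stood at 55.7, 32.4, 43.9 and 49.1% and H2ac20 at 31.1, 32.4, 43.9 and 49.1%. H2ac19 stood at 10.6, 15.1, 17.5 and 30.2% and H2ac18 at 19.9, 21.4, 26.3 and 17.4%. Several of these values belong to intervals at a neighbour. Those of H2ac18 had their summit inside H3c14 in each list, and those of H2ac21 inside H2ac20. The H2ac19 values in WT 2, DE 1 and DE 2 are those of the interval at the start of H3c15. The H2ac20 interval in WT 1 lay inside H2bc21. The H2A genes of chromosome 13 ran from 0.213% (H2ac4) to 51.0% (H2ac1, through an interval inside H2bc1) in WT 1, so the chromosomes overlapped there. By the strongest summit between 250 bp upstream and the gene end they overlapped in WT 1 as well. Those summits ran from 0.286 to 24.1% of all summits on chromosome 13 and from 10.2 to 60.7% on chromosome 3. The H2A median was 2.41% in WT 1, 9.87% in WT 2, 20.4% in DE 1 and 30.0% in DE 2.

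H2B genes mostly share their interval with the H2A gene that faces them, so their places repeat those above: H2bc11 those of H2ac11, H2bc15 those of H2ac15 and H2bc12 those of H2ac12. The family median was 2.55, 8.50, 22.6 and 36.8%. H2bc14 had the best mean place of the family, at 0.210, 0.842, 6.39 and 7.72%, with folds of 33.5, 36.0, 14.7 and 12.5, and its interval ranked 68 in WT 1. The summit of that interval lay inside the neighbouring pseudogene H2ac14 (chr13:21721442-21721801) in all 4 lists, not inside H2bc14. Of the 250 bases shown above for H2bc14, which begin at the edge of the pseudogene, between 57 and 188 were covered.

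H3 genes had a median place of 8.86, 12.6, 22.5 and 26.1%. H3c8 was the best placed, at 5.71, 4.38, 1.37 and 6.09%, with folds of 15.2, 21.7, 19.6 and 10.1. Its DE 1 interval, chr13:23535188-23535802, was the strongest at any member in that list, at rank 300. H3c11 stood at 7.56, 13.3, 10.6 and 13.3%, and H3c2 shares the H2ac4 interval. H3c6 was the weakest called gene of the family in each list, at 33.1, 50.6, 58.0 and 96.1%, except that H3c13 was weaker in DE 1 at 63.2%. H3c1 had no call in DE 2.

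H4 genes had a median place of 10, 23.0, 27.5 and 39.8%. H4c8 had the best mean place of all members, at 1.44, 4.20, 4.21 and 3.18%, with folds of 22.1, 24.5, 17.4 and 15.6. That interval does not touch the gene: it begins 196, 204, 165 and 191 bp beyond the 3′ end, and the H3K4me3 interval of H4c8 begins 239 bp beyond it, at the same site. The sequence shown upstream of H4c8 was covered over 100 and 118 bases in WT 1 and WT 2, with summits 109 and 43 bp before the start, and over 0 bases in the other lists. H4c6 stood at 11.1, 5.69, 7.75 and 27.3%, and H4c2 at 10, 23.4, 35.0 and 22.9%. The weakest called H4 gene in DE 2 was H4c17, at 80.7%, while H4c1 and H4c14 had no call there.

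In each H3K4me2 list, intervals covered positions about 250 bp inside the histone genes more often than the starts. Counted over the 59 member starts, the position most often covered was 280 bp inside the gene in WT 1 (78.0% of starts), 240 bp in WT 2 (86.4%), 290 bp in DE 1 (71.2%) and 260 bp in DE 2 (57.6%). Over 21204 starts of other genes it was 30 bp upstream in all 4 lists, at 36.2, 40.5, 34.7 and 29.3%. At 250 bp inside the gene, other starts were covered in 7.49, 12.2, 12.9 and 10.04%, and member starts in 74.6, 86.4, 67.8 and 54.2%. The start itself was covered at 30.5% of member starts in WT 1, 67.8% in WT 2, 61.0% in DE 1 and 39.0% in DE 2, and at 34.9, 39.8, 34.2 and 28.6% of other starts. So member starts were covered more often than other starts in WT 2, DE 1 and DE 2, and less often in WT 1. These shares run over all starts, also those without an interval nearby. A summit lay within 1 kb of 58, 58, 56 and 49 member starts, and of 10525, 10754, 9772 and 8801 of all 21263 starts. Covered were 18, 40, 36 and 23 of the member starts, and 7409, 8481, 7286 and 6092 of all starts. Set against the starts with a summit within 1 kb, member starts were thus covered less often in each list. For members up to 1 kb long, intervals covered 23.2, 50.6, 44.0 and 28% of the 250 bases upstream and 47.5, 59.4, 49.4 and 34.4% of the bases of the gene. The summit nearest to a member start lay at a median of 87.5 bp inside the gene in WT 1, 40 bp upstream in WT 2, 9.5 bp upstream in DE 1 and 28 bp inside in DE 2. For H3K4me3 the highest cover was 1.69% of member starts and 15.5% of other starts. The median member is 492 bp long, so a position 250 bp downstream of the start is within the gene for most of them. This profile and the summits below were looked at after the calls were seen.

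**Figure D4:**
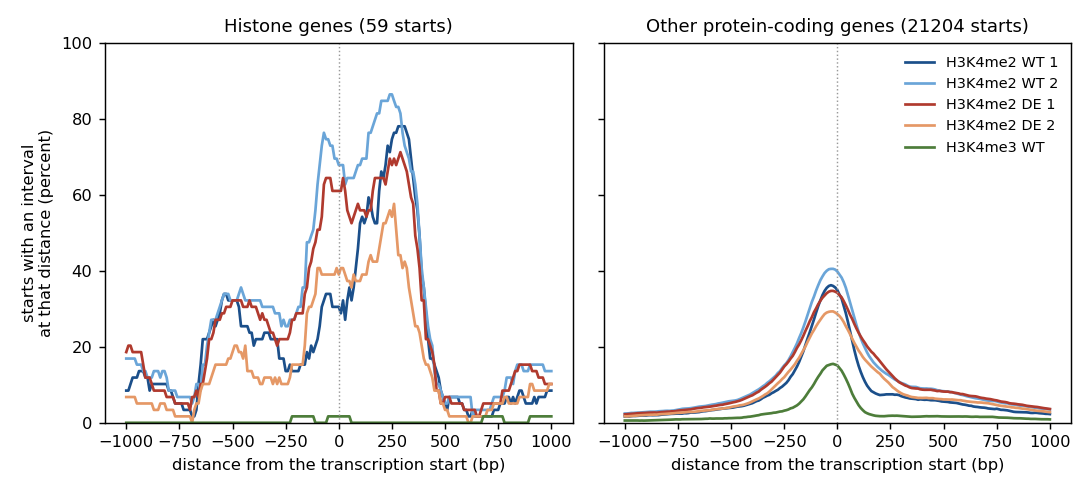
Percentage of starts with an interval at each distance from the transcription start (bp, downstream positive), for the 59 histone starts (left) and 21204 starts of other protein-coding genes (right), with 1 line for each list. The histone lines of H3K4me2 are highest 240 to 290 bp downstream, and those of the other genes 30 bp upstream.

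Gene by gene, the strongest summit was more often inside than upstream, but the stretches searched differ in length. The upstream part has 250 bp, while the median member is 492 bp long. The shares below therefore do not by themselves show a preference for the gene. For the 55 members up to 1 kb long with 1 start, the strongest summit between 250 bp upstream and the gene end lay inside the gene in 43 of 52 with any summit in WT 1, 40 of 53 in WT 2, 37 of 50 in DE 1 and 33 of 42 in DE 2, or 82.7, 75.5, 74.0 and 78.6%. Many of them had summits on both sides of the start, 17, 33, 22 and 13 in WT 1, WT 2, DE 1 and DE 2. With the whole 1 kb around the gene counted, the strongest summit was inside the gene in 46.3, 37.0, 46.2 and 49% of the called ones, up to 250 bp upstream in 9.26, 16.7, 5.77 and 10.2%, and elsewhere in 44.4, 46.3, 48.1 and 40.8%, as for H2bc11, where it lay inside the facing H2ac11. Other genes up to 1 kb long seldom had a summit there, and theirs lay inside in 16 of 39, 13 of 35, 14 of 35 and 10 of 33, or 41.0, 37.1, 40.0 and 30.3%. Member genes, being near copies of each other within a family, are not independent, and the placing of reads that match several copies (not given in the sources used here) was not tested for its part in these positions.

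In the H2A genes of chromosome 13 the summits recurred at like positions. There the strongest summit was inside the gene in 12 of 12 genes with a summit in WT 1, WT 2 and DE 1, and in 10 of 10 in DE 2. Measured from the 3′ end, it lay 126 to 154 bp away in WT 1 (median 142), 140 to 224 in WT 2 (median 150), 132 to 282 in DE 1 (median 156) and 121 to 247 in DE 2 (median 156). H2ac15 is typical, at 145, 145, 141 and 143 bp from its end, and H2ac22 and H2ac10 gave the widest values, up to 282 bp for H2ac22 in DE 1. On chromosome 3 the H2A summits differed, at 208 to 290 bp from the end in WT 1 for the 3 inside the gene, and 3 of 4 lay upstream of the start in DE 1.

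**Figure D5:**
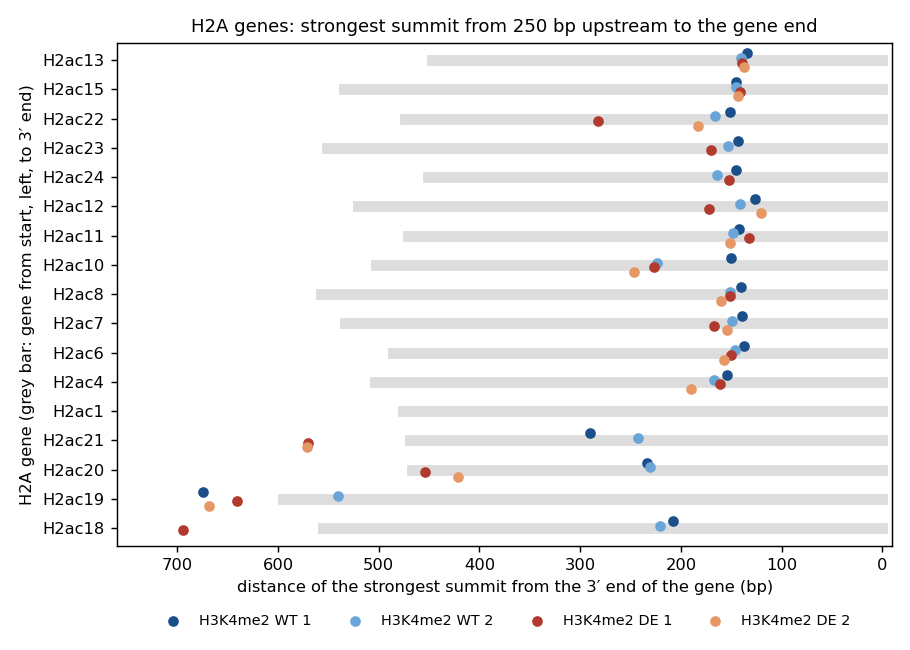
Distance of the strongest H3K4me2 summit from the 3′ end of each H2A gene (bp), by library, with the gene as a grey bar from its start on the left. The chromosome 13 genes, H2ac13 to H2ac4, line up 121 to 282 bp from the end, while the chromosome 3 genes, H2ac21 to H2ac18, spread wider and H2ac1 has no summit.

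In H2B genes the summit lay nearer the start. It was inside the gene in 9 of 10, 9 of 11, 6 of 9 and 5 of 6 genes, at a median of 180, 191, 188 and 184 bp from the start. These inside summits ran from 135 to 353, 11 to 279, 143 to 403 and 115 to 276 bp. H2bc15 had it at 178, 191, 192 and 210 bp, and H2bc7 at 140, 120, 143 and 125 bp. H2bc11 had it 353 and 253 bp inside in WT 1 and WT 2, but 58 and 97 bp upstream in DE 1 and DE 2. In H3 genes it was inside in 8, 8, 7 and 7 of 10, from 206 to 408, 69 to 418, 11 to 220 and 42 to 409 bp. H3c11 had it at 211, 221, 194 and 252 bp. H3c8 alone had it upstream in every list, 187, 150, 132 and 118 bp before the start for H3K4me2 and 140 bp before it for H3K4me3. H3c15 came close, 59, 73 and 89 bp upstream in WT 1, WT 2 and DE 2 and 11 bp inside in DE 1. H3c10 and H3c6 had it upstream in DE 1 alone, and H3c2 in DE 2 alone. The shown sequence of H3c8 was covered over 237, 237, 230 and 225 of 250 bases for H3K4me2 and 116 for H3K4me3, and it holds 3 CCAAT boxes.

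In H4 genes the libraries differed. The strongest summit was inside in 9 of 11 in WT 1, 5 of 11 in WT 2 and 8 of 10 in both DE lists. H4c2 had it 314 bp inside in WT 1, 38 bp upstream in WT 2, and 301 and 320 bp inside in DE. H4c9 had it 247 bp inside in WT 1, 40 bp upstream in WT 2, and 32 and 248 bp inside in DE. H4c11 kept the same site in all 4, at 264, 253, 272 and 276 bp, as did H4c12 at 276, 281, 244 and 254 bp. In H1 genes, H1f4 had its summit at the start, 22, 14, 3 and 22 bp upstream, and H1f5 inside the gene at 262, 237, 279 and 268 bp.

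H2A and H2B genes often stand head to head and share the DNA between their starts, as H2ac12 and H2bc12 do above. Among genes with a listed start there were 9 such pairs, with gaps of 163 to 280 bp between starts (median 179). Genes without one, H2bc4 and H2bc21 among them, could not be counted in a pair. An interval touched the gap in 3 pairs in WT 1, 6 in WT 2, 5 in DE 1, 4 in DE 2 and 0 in the H3K4me3 list. A summit lay in the gap in 1, 4, 4, 1 and 0 pairs. The gap of H2ac12 and H2bc12 had an interval in all 4 H3K4me2 lists, at 80.1, 37.5, 41.8 and 52.3%, weaker than the interval inside H2ac12 at 0.544, 6.97, 22.6 and 13.6%. For H2ac22 with H2bc22 and for the testis pair no list had an interval in the gap.

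H3K4me3 was called at 5 members through 4 intervals, all in block 3: H4c8 at 67.7% of its list, H2ac10 and H3c8 through a shared interval at 34.7%, and H4c6 and H1f2 at 98.9% each. Their folds were 5.63, 7.33, 4.37 and 3.99. The summit was 140 bp upstream of the start of H3c8 and 10 bp downstream of that of H4c6. The intervals of H1f2 and H2ac10 lay 171 and 811 bp outside the gene, each beyond its 3′ end. Of the 54 members called in all 4 H3K4me2 lists, these 5 carried H3K4me3 (9.26%), where 50.8% of all such genes did. Among the genes whose mean WT place was also within 10%, it was 4 of 26 members (15.4%), against 70.1% of all such genes. The H3K4me3 library is 1 library of another batch, and the mark cannot be told apart from the batch. The placing of reads among near copies was not tested as a part of this gap.

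Members just inside the 1 kb limit were H2bc18 (700 bp in DE 2), H2ac10 (811 bp, H3K4me3), H2ac23 (817 bp in DE 2) and H2ac24 (943 bp in DE 2). Just outside were H2bc3 (1356 bp in DE 2), H2bc23 (1536 bp in DE 2) and H1f6.

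The genes that act on histone supply were called in most lists. Of 11 replication-independent histone genes, whose expression is not confined to S phase, 9, 10, 9 and 6 were called in WT 1, WT 2, DE 1 and DE 2. The H3K4me3 list called 7 of them. Of 24 genes for transcription and 3′ end processing of histone messages, 21, 22, 20 and 17 were called, and 16 in the H3K4me3 list. Slbp, whose protein binds the stem-loop, stood at 4.03, 19.4, 12.2 and 2.86% and at 1.56% for H3K4me3. Of 17 histone chaperone genes, 17, 17, 16 and 12 were called, and 11 in the H3K4me3 list. In each H3K4me2 list these 3 lists and the members were called above the share of all genes; in the H3K4me3 list the members were below it and the 3 lists above.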

How the data were processed

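The values are peak lists, 1 per library, so peaks were called per library and not on pooled samples. Per the submitters' processing notes, Trimmomatic, Bowtie2, SAMtools, Picard, MACS2 2.2.9.1 and the mm10 build were used; their settings, the control and the treatment of duplicates and of reads matching several places were not stated in the sources used here. The deposited score of a peak was not used further. The deposited fold is a linear ratio of pileup to local background within a library. The deposited −log10 p and −log10 q belong to the summit; the −log10 p ranked intervals within a list. Summits of 1 interval were merged into it, and for 4 WT 1 entries without a summit offset the midpoint was taken.

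Genes and start sites came from RefSeq tables of GRCm38.p6. An interval within 1 kb of either gene end gave a call, for each gene in reach; shares have 95% Wilson intervals. Python 3.11.15, pandas 2.3.3 and scipy 1.17.1 were used. The call code was tested on simulated data: 200 of 200 genes given an interval were found and 0 of 200 distant intervals were assigned. Named were the 3 best placed members per family by mean place over the 4 H3K4me2 lists, members called in 1 genotype alone or in no list, members outside the largest block, members with H3K4me3 and those next to the 1 kb limit. Other members named were chosen after their values were seen. The members and lists were chosen with earlier results of these data known. No test was made over members. Other windows (0.5 and 2 kb), summits in place of intervals, the nearest gene alone, the start alone, lists cut to 1 length, a −log10 q of at least 5 and leaving out each library were tried.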

Additional observations from a re-analysis of the deposited data

How the results depend on the processing

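Of the recomputed counts over the histone genes, 72 stayed within 1.5 times of the reported count and 7 did not. That tolerance is wide. Members called in all 4 H3K4me2 lists, 54 as reported, numbered 38 at a −log10 q of at least 5 and 47 with the nearest gene alone. Those called in DE 2, also 54, numbered 39 and 48. No share of all genes is given at these settings. The number without an H3K4me2 call, 1 as reported, was 2 with a 0.5 kb window and with the nearest gene alone (H2ac1 joined H1f6), 0 with 2 kb and 6 with the start alone, where 5 members without a listed start cannot be called. Members called in both WT and neither DE list, 3 as reported, numbered 5 at a −log10 q of at least 5 (H3c6, H4c1, H3c1, H3c13 and H2bc18, none of the 3 reported) and 3 to 8 when each library was left out in turn, the 8 being without DE 1. Members with H3K4me3, 5 as reported, numbered 2 at that q (H2ac10 and H3c8). No paired analysis was possible because the results come from no test and the labels do not say that WT and DE libraries were paired. The read depth of the lists is unknown.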

Other observations

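Of 6 histone genes whose symbols fall outside the naming rule (H4bc24, H2bu2, H2aw, H3f4, H4f16 and H3f3c), 3, 3, 3 and 2 were called in WT 1, WT 2, DE 1 and DE 2, and 0 in the H3K4me3 list. The shares of all genes were 48.2, 49.2, 44.9 and 40.3%, and 20.8% for H3K4me3, so the H3K4me2 counts are near the background. H4bc24 lies within the first block on chromosome 13 and was called in WT 1, WT 2 and DE 1. The other protein-coding gene inside the blocks that is no member, Hfe, an iron regulator, was called in DE 1 alone. In block 2, intervals covered 17.3, 21.1, 19.2 and 16.7% of the bases in WT 1, WT 2, DE 1 and DE 2, against 4.08, 5.99, 4.97 and 3.37% in block 3 and 3.70, 2.88, 0 and 0% in block 4. Block 2 holds 5 members in 8.54 kb and block 3 holds 29 in 233 kb. Cover per base therefore does not compare the genes themselves.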
